A study of Mus musculus with 36 samples.

Results

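The 6 small RNA libraries described here came from ventral and lateral prostate lobes of 30-week-old male mice in which Elac2 was deleted, with the TRAMP transgene in 3 libraries (KO-TRAMP) and without it in 3 libraries (KO). They were 6 of the 36 libraries of the study, which profiled microRNAs (miRNAs) in wild-type (WT), Elac2 knockout (KO) and Elac2 point mutant (A537T) prostates, each with and without TRAMP, at 10 and 30 weeks. The members were every library of these 2 groups, and a miRNA was tested when its mean over the 6 libraries was at least 1 count per 1000000 miRNA reads (CPM), which left 516 miRNAs. Both groups shared a strain label (C56NL/6N), the genotype ELAC2-/- and a floxed Elac2 gene cut by Pb-Cre, a recombinase under the probasin promoter that works in prostate epithelium, so that other cells of the lobes lie outside its reach. KO-TRAMP mice carried in addition TRAMP in heterozygous form (TRAMP +/-), and the comparison asked what this transgene does to miRNAs where the epithelium lacks ELAC2. WT and A537T mice, with and without TRAMP +/-, at 30 weeks, and KO and KO-TRAMP mice at 10 weeks enter below for comparison of the transgene effects.

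TRAMP places the early region of the SV40 virus, with its large and small T antigens, under the probasin promoter. Large T antigen binds and inactivates the retinoblastoma protein and p53, which releases E2F transcription factors and drives prostate epithelium into the cell cycle, and TRAMP tumours can take on neuroendocrine features. ELAC2 is the endonuclease that trims the 3′ ends of precursor tRNAs. A mature miRNA recognises its targets mainly through its seed, bases 2 to 8 from the 5′ end, so that miRNAs of different genes with 1 seed are grouped as a family.

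The sequences of the miRNAs on which the results turn are given here by seed family, from RefSeq (GRCm38.p6), 5′ to 3′, with the seed in capitals. Of the 516 tested miRNAs 445 were matched to a RefSeq entry. The first family comprised members of the miR-17-92 and miR-106b-25 clusters, which were higher in KO-TRAMP, and miR-20b-5p of the X-linked paralogue cluster, which did not pass the test:
miR-17-5p: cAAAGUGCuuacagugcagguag
miR-20a-5p: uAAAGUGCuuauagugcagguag
miR-106b-5p: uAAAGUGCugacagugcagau
miR-93-5p: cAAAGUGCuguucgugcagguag
miR-20b-5p: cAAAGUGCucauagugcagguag
The miR-19 seed was carried by 2 tested miRNAs, which differ from each other outside the seed and were both higher:
miR-19a-3p: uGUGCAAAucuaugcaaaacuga
miR-19b-3p: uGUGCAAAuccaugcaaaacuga
The miR-25 seed joined 2 miRNAs that were higher with miR-92a-3p, which did not pass:
miR-25-3p: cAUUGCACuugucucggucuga
miR-32-5p: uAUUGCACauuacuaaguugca
miR-92a-3p: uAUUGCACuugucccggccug
The miR-15/16 seed is shown with 4 of its carriers that were higher, of which miR-195a-5p and miR-497a-5p share a locus:
miR-15b-5p: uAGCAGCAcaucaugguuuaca
miR-16-5p: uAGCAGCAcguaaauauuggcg
miR-195a-5p: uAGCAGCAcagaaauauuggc
miR-497a-5p: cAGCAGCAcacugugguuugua
The miR-34 seed is shown because miR-34a-5p fell while miR-34b-5p rose, and miR-449a-5p did not pass:
miR-34a-5p: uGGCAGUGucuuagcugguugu
miR-34b-5p: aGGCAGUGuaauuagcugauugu
miR-449a-5p: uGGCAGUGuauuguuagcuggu
The seed of miR-221-3p and miR-222-3p was carried by miRNAs that were lower, as was miR-205-5p, and miR-142a-3p was higher:
miR-221-3p: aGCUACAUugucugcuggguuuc
miR-222-3p: aGCUACAUcuggcuacugggucu
miR-205-5p: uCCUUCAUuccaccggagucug
miR-142a-3p: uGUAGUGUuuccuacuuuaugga

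The libraries held 11261059 to 15619692 miRNA reads and 899 to 1039 detected miRNAs. They did not fall evenly into their groups. Libraries 17 and 18 of KO-TRAMP were alike (Spearman rho over 516 miRNAs 0.991), and so were libraries 22 and 24 of KO (0.991), whereas KO-TRAMP library 16 was nearer to the 3 KO libraries (0.930 to 0.944) than to libraries 17 and 18 (0.856 and 0.890). KO library 23 stood at 0.945 and 0.959 to the other KO libraries. Neither the knockout nor the transgene could be checked, since neither Elac2 mRNA nor the T antigens are measured by miRNA reads. All 8 epithelial markers (miR-200 family, miR-205, miR-203, miR-375) were present, with a summed level of 69707 to 92997 CPM. The smooth muscle miRNAs of the miR-143 and miR-145 locus summed to 55924, 339334 and 241874 CPM in KO-TRAMP libraries 16, 17 and 18 and to 293356, 124042 and 269499 CPM in KO libraries 22, 23 and 24, so that libraries 16 and 23 were the low ones. In whole lobes, fewer cells of a type and less of a miRNA per cell cannot be told apart. Labels do not say which replicate number a library has, so libraries are named here by the number in their column, and values are always given in the order 16, 17, 18 and 22, 23, 24.

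With the TRAMP transgene 73 of 516 miRNAs rose (14.1%) and 18 fell (3.49%) in Elac2 knockout prostate at an adjusted p under 0.05 (limma on log2(CPM + 1), Benjamini-Hochberg over all 516). The log2 differences of the 73 ran from 0.70 to 2.74 and those of the 18 from -1.74 to -0.88. The groups did not overlap for any of these 91 miRNAs, against 219 of all 516 (42.4%). For a called miRNA, groups apart therefore add nothing to the call in what follows. The median log2 difference of all tested miRNAs was 0.35 with libraries scaled to their totals, 0.16 with TMM scaling and 0.03 with median-of-ratios scaling, and differences of families below are read against 0.35. With TMM 44 rose (8.53%) and 25 fell (4.84%), and with median-of-ratios scaling 35 rose (6.78%) and 30 fell (5.81%). All 18 lower miRNAs remained lower under both, whereas 44 and 35 of the 73 remained higher.

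The number of calls rested on single libraries. Without KO-TRAMP library 16 it was 235 of 515, with 192 higher (37.3%) and 43 lower (8.35%), and these included all 91. It was 47 without library 17, 116 without KO library 23 and 27 without library 22. No miRNA passed without library 18 or without library 24 by limma, when 120 and 122 had an unadjusted p under 0.05. The edgeR quasi-likelihood test called 62 higher and 26 lower and DESeq2 87 higher and 65 lower on all 6 libraries.

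**Figure D1:**
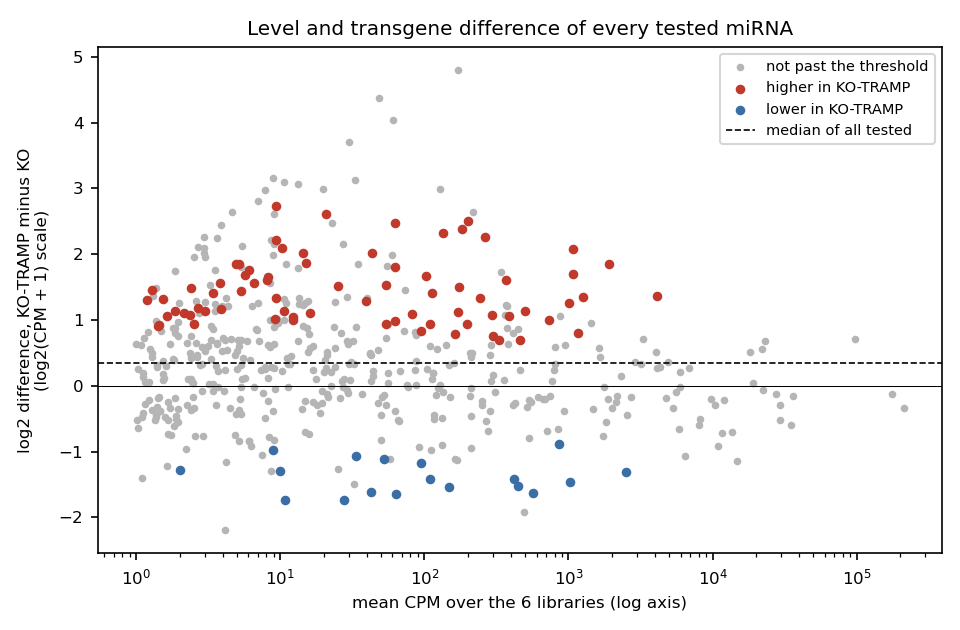
Mean level over the 6 libraries (CPM, log axis) against the log2 difference between KO-TRAMP and KO for each of the 516 tested miRNAs (points). Red points are the 73 higher and blue points the 18 lower miRNAs, and the dashed line is the median of all (0.35). Grey points above the red ones, such as miR-499-5p, did not pass.

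The miR-17-92 cluster and its paralogues, known as MYC and E2F targets that favour cell cycle entry and survival, were among the groups that rose. Of 12 tested members (1 other was below the level for testing) 8 rose (against 14.1% of all miRNAs), none fell and 4 did not pass, and their median log2 difference was 1.71, against 0.35 for all miRNAs. The lists used here and below were chosen with earlier results of these data known. Their counts beside the share of all miRNAs are therefore descriptions and no test. The miR-106b-25 cluster lies within Mcm7, which encodes a subunit of the replicative helicase (Mir106b, chr5:138165737-138165818, minus strand, intron). The level of miR-93-5p was 1479, 1799 and 1905 CPM in KO-TRAMP and 465, 368 and 385 CPM in KO, a log2 difference of 2.09 ± 0.19 (SE), adjusted p = 0.00437. For miR-106b-5p it was 259, 338 and 315 CPM against 76.3, 37.9 and 64.7 CPM (2.38 ± 0.30 (SE), adjusted p = 0.00876). The KO-TRAMP libraries lay close together for both, and the lowest of them was above every KO library. The abundant miR-25-3p stood at 3540.2, 2499.7 and 2874.4 CPM against 713, 1034 and 735 CPM (1.85 ± 0.23 (SE), adjusted p = 0.00876), with library 16 the highest here. The other strands of these hairpins moved with them, miR-106b-3p by 2.27 ± 0.19 (SE), adjusted p = 0.00437 and miR-25-5p by 2.09 ± 0.36 (SE), adjusted p = 0.0149. All 6 tested strands of this locus rose.

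The miR-17-92 transcript Mir17hg (Mir19a, chr14:115044000-115044081, plus strand, exon) carries several further members. The level of miR-19a-3p was 40.0, 33.02 and 36.2 CPM in KO-TRAMP and 6.22, 3.50 and 6.12 CPM in KO (2.60 ± 0.28 (SE), adjusted p = 0.00872). For miR-20a-5p it was 498, 594 and 561 CPM against 249.5, 127 and 184 CPM (1.61 ± 0.27 (SE), adjusted p = 0.0148). Groups were apart in both cases, and library 16 was no exception. Of the other members, miR-18a-5p rose by 2.21, miR-19b-3p by 1.80 and miR-17-5p by 1.34, the last with an adjusted p of 0.0252 that became 0.0705 with TMM scaling. In contrast miR-92a-3p, made from the same transcript and from the X-linked cluster, stood at 981, 785 and 942 CPM against 772, 624 and 747 CPM (0.34 ± 0.18 (SE), adjusted p = 0.206). The X-linked paralogues miR-106a-5p, miR-20b-5p and miR-363-3p had log2 differences of -0.39, -1.26 and -1.50 and did not pass. For miR-20b-5p the values were 18.5, 9.57 and 12.4 CPM against 20.5, 64.8 and 25.7 CPM, the KO value of library 23 being the highest, opposite in sign to miR-20a-5p, whose seed it shares.

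Summed over the table entries with the seed AAAGUGC, the family stood at 2576, 3089.8 and 3177 CPM in KO-TRAMP and 1006, 705 and 811 CPM in KO, a ratio of means of 3.51. Entries with the miR-19 seed GUGCAAA summed to 152.03, 109.6 and 137 CPM against 43.6, 21.4 and 34.01 CPM, a ratio of 4.03. Seed sums show the pool that could compete for 1 kind of target site, and in both families every KO-TRAMP library exceeded every KO library. Called miRNAs make up most of the first sum and all of the second, so this separation adds nothing to their calls. The miR-25 seed was raised also through miR-32-5p, which lies in an intron of Tmem245 (chr4:56895229-56895298, minus strand) and is known as an androgen-regulated miRNA in prostate. Its level was 74.9, 129 and 117.4 CPM against 20.6, 14.3 and 19.3 CPM (2.48 ± 0.29 (SE), adjusted p = 0.00876), with library 16 the lowest of the KO-TRAMP libraries but well above KO.

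The miR-15/16 family, whose members restrain cyclins and BCL2, rose as well. Of 6 tested members 5 rose (against 14.1% of all miRNAs) and miR-322-5p did not pass (0.91 ± 0.27 (SE), adjusted p = 0.0579), and the median log2 difference was 1.27. The levels of miR-15b-5p, in an intron of the condensin gene Smc4 (chr3:69009772-69009835, plus strand), were 239, 187 and 245 CPM and 40.0, 61.7 and 33.1 CPM (2.33 ± 0.28 (SE), adjusted p = 0.00876). The more abundant miR-16-5p, made from this locus and from Dleu2 on chromosome 14, stood at 1410.2, 1362 and 1521 CPM against 665, 546 and 589 CPM (1.26 ± 0.16 (SE), adjusted p = 0.00881). The groups did not overlap for either, and for miR-15b-5p the KO libraries differed among themselves, with library 23 the highest. The other strand of the Dleu2 hairpin, miR-16-1-3p, which can be assigned to 1 locus, was at 61.5, 76.8 and 71.3 CPM against 23.3, 10.6 and 18.01 CPM (2.01 ± 0.31 (SE), adjusted p = 0.0115). From a separate locus on chromosome 11, miR-497a-5p rose by 1.51 and miR-195a-5p by 1.14, while miR-15a-5p rose by 1.28. The calls of miR-15a-5p and miR-195a-5p were lost with median-of-ratios scaling (adjusted p = 0.0907 and 0.0834).

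**Figure D2:**
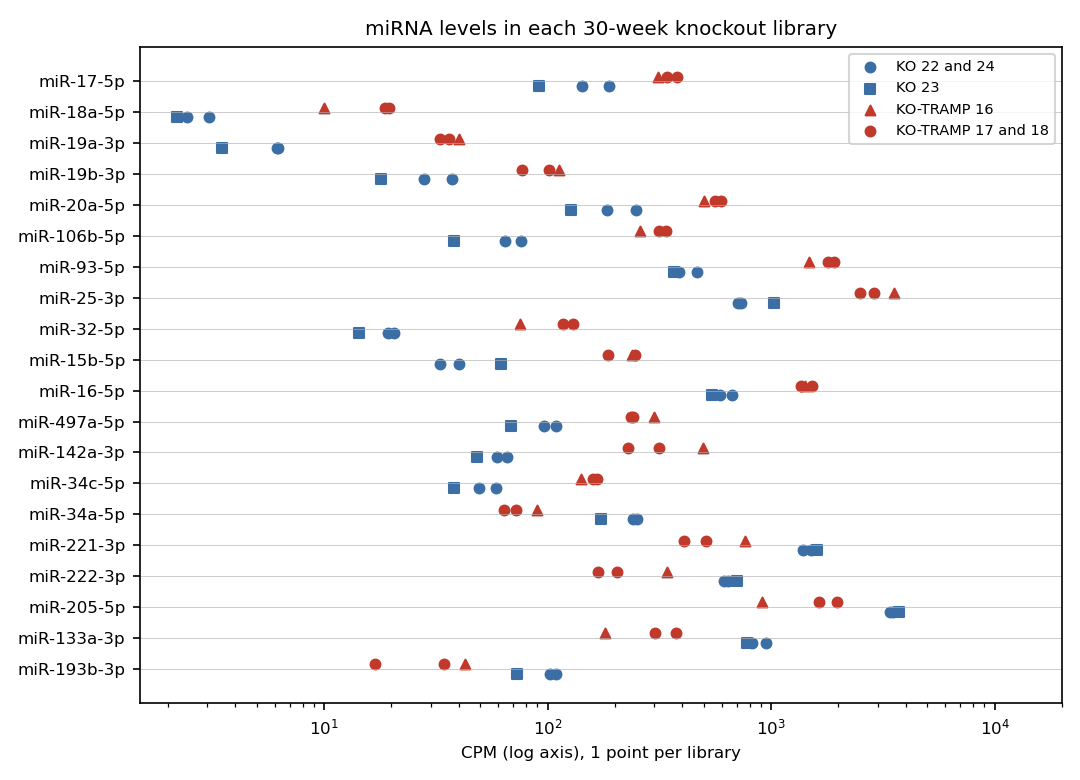
Levels (CPM, log axis) of 20 miRNAs in each of the 6 libraries, 1 point per library, KO in blue and KO-TRAMP in red, with the triangle for library 16 and the square for library 23. The 20 were taken from the 91 called miRNAs, for all of which the groups did not overlap. In each row the red points therefore lie on 1 side of the blue points: for miR-93-5p at 1479 to 1905 CPM against 368 to 465 CPM, and for miR-34a-5p at 63.6 to 89.3 CPM against 173 to 249.7 CPM.

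The miR-34 family, a group of p53 targets with 1 seed, split by locus. The level of miR-34a-5p was 89.3, 63.6 and 71.8 CPM in KO-TRAMP and 249.7, 173 and 239.7 CPM in KO (-1.54 ± 0.23 (SE), adjusted p = 0.0110). In contrast miR-34c-5p, which is made with miR-34b from another chromosome, stood at 142, 166 and 160.1 CPM against 59.0, 38.0 and 49.4 CPM (1.67 ± 0.22 (SE), adjusted p = 0.00881), and miR-34b-5p at 8.79, 11.6 and 10.5 CPM against 3.79, 1.78 and 3.13 CPM (1.56 ± 0.30 (SE), adjusted p = 0.0186). Groups were apart for all 3, and the directions held under TMM and median-of-ratios scaling. The related miR-449a-5p and miR-449c-5p were high in libraries 17 and 18 only, with miR-449a-5p at 1.95, 106 and 69.3 CPM against 1.83, 0.412 and 1.53 CPM (3.70 ± 1.32 (SE), adjusted p = 0.0976). Library 16 lay just above the KO libraries for miR-449a-5p. In the list of 5 miR-34 and miR-449 miRNAs 2 rose, 1 fell and 2 did not pass, with a median of 1.67.

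Among miRNAs of leukocytes, miR-142a-3p, which is confined to blood cell lineages, rose to 497, 228 and 315 CPM from 65.7, 48.3 and 59.3 CPM (2.50 ± 0.31 (SE), adjusted p = 0.00876). The activation-linked miR-155-5p stood at 118, 124 and 124 CPM against 75.5, 59.7 and 68.6 CPM (0.84 ± 0.18 (SE), adjusted p = 0.0253), a call that was lost with TMM scaling (adjusted p = 0.0913). Of the 7 leukocyte markers these 2 rose (14.1% of all miRNAs did), none fell and 5 did not pass, and with TMM scaling 1 rose. The median was 0.84, against 0.35 for all. The summed level of the list was 9054, 3265 and 4992 CPM in KO-TRAMP and 3565, 3169.6 and 3615 CPM in KO, so that library 16 was the highest and library 17 lay within the KO range. The lymphocyte miRNA miR-150-5p was at 181.9, 58.8 and 100.5 CPM against 118, 209 and 123 CPM (-0.49 ± 0.45 (SE), adjusted p = 0.437), and miR-146a-5p at 5558, 1791 and 2849 CPM against 2599.7, 1975 and 2602 CPM (0.36 ± 0.41 (SE), adjusted p = 0.533). The part of a change in leukocyte number in these values was not tested.

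Outside these families, the epithelial miR-203-3p, which represses the basal factor p63, was at 984, 2257 and 1705 CPM in KO-TRAMP and 584, 379 and 504 CPM in KO (1.69 ± 0.34 (SE), adjusted p = 0.0209). The level of miR-7a-5p, abundant in neuroendocrine cells, was 4925, 7183 and 5855 CPM against 2279.6, 2220.4 and 2383 CPM (1.37 ± 0.20 (SE), adjusted p = 0.0105). In each the 3 KO-TRAMP libraries lay above the KO libraries, with library 16 the lowest of them. The CREB-induced pair miR-132 and miR-212, made from 1 transcript on chromosome 11, gave 17.05, 30.8 and 24.9 CPM against 5.21, 6.11 and 6.05 CPM for miR-132-5p (1.86 ± 0.29 (SE), adjusted p = 0.0115) and 8.79, 37.0 and 26.8 CPM against 3.85, 5.97 and 3.55 CPM for miR-212-5p (2.02 ± 0.53 (SE), adjusted p = 0.0459, with TMM scaling 0.0684). Smaller rises were seen for miR-96-5p (0.80 ± 0.15 (SE), adjusted p = 0.0175), miR-101b-3p, a repressor of the methyltransferase EZH2 (1.00 ± 0.21 (SE), adjusted p = 0.0242), and miR-196a-5p of the Hox clusters (0.95 ± 0.22 (SE), adjusted p = 0.0355), and none of these 3 passed with TMM scaling (0.0595, 0.0847 and 0.0885).

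The miRNAs that fell included miR-205-5p, a marker of basal prostate epithelium. Its level was 906, 1968 and 1643 CPM in KO-TRAMP and 3491, 3723 and 3398 CPM in KO (-1.30 ± 0.30 (SE), adjusted p = 0.0345), with library 16 the lowest. The X-linked pair miR-221-3p and miR-222-3p, which repress the cell cycle inhibitor p27, stood at 765, 409 and 511 CPM against 1385, 1604 and 1509.9 CPM (-1.46 ± 0.26 (SE), adjusted p = 0.0158) and 343, 167 and 204 CPM against 640.0, 705 and 615 CPM (-1.52 ± 0.29 (SE), adjusted p = 0.0186). Here library 16 was the highest KO-TRAMP library and still below KO. Their seed sum was 1109, 576 and 715 CPM against 2025, 2309 and 2125 CPM. In the list of 4 miR-221 and miR-222 strands both these fell and the other 2 did not pass (median -1.19).

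The clustered miR-193b-3p (42.7, 16.9 and 34.5 CPM against 103, 72.7 and 109 CPM, -1.64 ± 0.38 (SE), adjusted p = 0.0337) and miR-365-3p (46.1, 63.5 and 65.2 CPM against 118, 223 and 141 CPM, -1.41 ± 0.30 (SE), adjusted p = 0.0235) fell together. The muscle miRNAs miR-133a-3p (181, 302 and 375 CPM against 824, 776 and 947 CPM, -1.63 ± 0.29 (SE), adjusted p = 0.0163) and miR-133b-3p (-1.61 ± 0.32 (SE), adjusted p = 0.0203) fell too. Other muscle miRNAs did not go with them, since miR-1a-3p, transcribed with miR-133a, was at 1649, 8399 and 5318 CPM against 4118, 7284 and 4947 CPM (-0.34 ± 0.60 (SE), adjusted p = 0.687), and the 6-marker skeletal muscle list summed to 1871, 9364 and 6139 CPM against 5010.1, 8197 and 6008 CPM. The cardiac and slow-muscle marker miR-208b-3p was at 0 in 5 of these libraries. Among the other miRNAs that fell with a mean of at least 10 CPM were miR-664-3p (13.1, 9.74 and 13.8 CPM against 41.0, 46.9 and 40.8 CPM, -1.74 ± 0.23 (SE), adjusted p = 0.00881), miR-3102-3p (-1.74 ± 0.30 (SE), adjusted p = 0.0156), miR-328-3p (-1.42 ± 0.28 (SE), adjusted p = 0.0199) and miR-574-3p (-1.17 ± 0.31 (SE), adjusted p = 0.0459). The 12 lower miRNAs named so far, miR-34a-5p included, all passed also by edgeR and by DESeq2.

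The Dlk1-Dio3 cluster on chromosome 12 is an imprinted locus that holds many miRNAs expressed from the maternal chromosome. Of the 30 tested members of a list from this locus 10 rose (against 14.1% of all), none fell and 20 did not pass. The list does not hold every strand. By position, 4 of 11 tested strands rose at chr12:109580243-109595388 and 12 of 32 at chr12:109709065-109743786, with 0 lower in each. The median log2 difference of the list was 0.87 and all 30 had a positive sign, which they kept in median under TMM (0.69) and median-of-ratios scaling (0.52), where 5 and 4 were called. The level of miR-379-5p was 218, 246 and 244 CPM in KO-TRAMP and 107, 121 and 96.1 CPM in KO (1.12 ± 0.18 (SE), adjusted p = 0.0115). For miR-434-5p it was 134, 186 and 172 CPM against 53.2, 74.6 and 55.4 CPM (1.41 ± 0.23 (SE), adjusted p = 0.0126), and for miR-409-5p 8.17, 14.8 and 15.2 CPM against 4.06, 3.36 and 2.71 CPM (1.61 ± 0.32 (SE), adjusted p = 0.0203). The KO-TRAMP libraries were above all KO libraries for each of these, library 16 included. Of the rest, the most abundant, miR-127-3p, had the smallest called rise (0.70 ± 0.19 (SE), adjusted p = 0.0474), and miR-541-5p, miR-411-5p, miR-434-3p, miR-370-3p, miR-369-3p and miR-136-5p rose by 1.09, 0.93, 0.94, 1.00, 1.44 and 1.65. Without library 16, 21 of the 30 rose, against 37.3% of all miRNAs in that fit. The library left out was picked from these same data, so this count is no further test of the list.

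A further set of miRNAs was high in libraries 17 and 18 and not in library 16. Of the 10 neuroendocrine and neural markers 9 were tested, of which miR-7a-5p rose and 8 did not pass, with a median of 1.37. Yet miR-7b-5p stood at 16.3, 452 and 258 CPM in KO-TRAMP libraries 16, 17 and 18 and 17.1, 9.81 and 19.8 CPM in KO (2.99 ± 1.17 (SE), adjusted p = 0.117). For miR-129-5p the values were 1.24, 167 and 131 CPM against 11.2, 6.79 and 10.7 CPM (1.83 ± 1.60 (SE), adjusted p = 0.424), and for miR-153-3p 0.444, 11.9 and 8.84 CPM against 0.203, 0.274 and 0.139 CPM (2.24 ± 0.80 (SE), adjusted p = 0.0994). Library 16 lay within or below the KO range for miR-7b-5p and miR-129-5p and a little above it for miR-153-3p. Likewise miR-9-5p, a regulator of neural progenitors, was at 84.5, 895 and 651 CPM against 221, 123 and 189 CPM (1.08 ± 0.87 (SE), adjusted p = 0.383). Not every tested marker followed this pattern. The level of miR-218-5p was 569, 399 and 522 CPM against 475, 114 and 406 CPM, highest in library 16. For miR-129-2-3p it was 0.0888, 1.78 and 2.37 CPM against 3.18, 0.412 and 3.55 CPM. Without library 16, 7 of the 9 rose (miR-7a-5p, miR-7b-5p, miR-9-5p, miR-9-3p, miR-129-5p, miR-129-1-3p and miR-153-3p), against 37.3% of all miRNAs in that fit, with a median of 2.14 against 0.38. That fit leaves out the library that stood apart in these values, so its count follows from this choice. It describes libraries 17 and 18 and is no further test of the list. The neuronal miR-124-3p was at 0.274 to 1.76 CPM in all 6 libraries and was not tested.

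The widest such gap was that of miR-499-5p, a miRNA of the myosin gene Myh7b, which stood at 0.799, 621 and 399.7 CPM against 0.879, 3.64 and 1.39 CPM (4.80 ± 2.15 (SE), adjusted p = 0.15). Libraries 17 and 18 thus stood far above the other 4 libraries, and the call was made by edgeR (adjusted p = 0.0498) and DESeq2 (5.96e-06) but not by limma. The endocrine and epithelial miR-375-3p was at 622, 10627 and 8443 CPM against 4339, 1709 and 3582 CPM (0.36 ± 1.09 (SE), adjusted p = 0.817), and miR-10b-5p at 1803, 41894 and 28319 CPM against 18937, 2694 and 14612 CPM (0.51 ± 1.32 (SE), adjusted p = 0.788). Both were lowest in libraries 16 and 23, the libraries with the least miR-143 and miR-145. Across all 516 miRNAs, libraries 17 and 18 lay above every KO library while library 16 did not for 87, and below every KO library while library 16 did not for 40. All 3 lay above for 168 and below for 51.

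**Figure D3:**
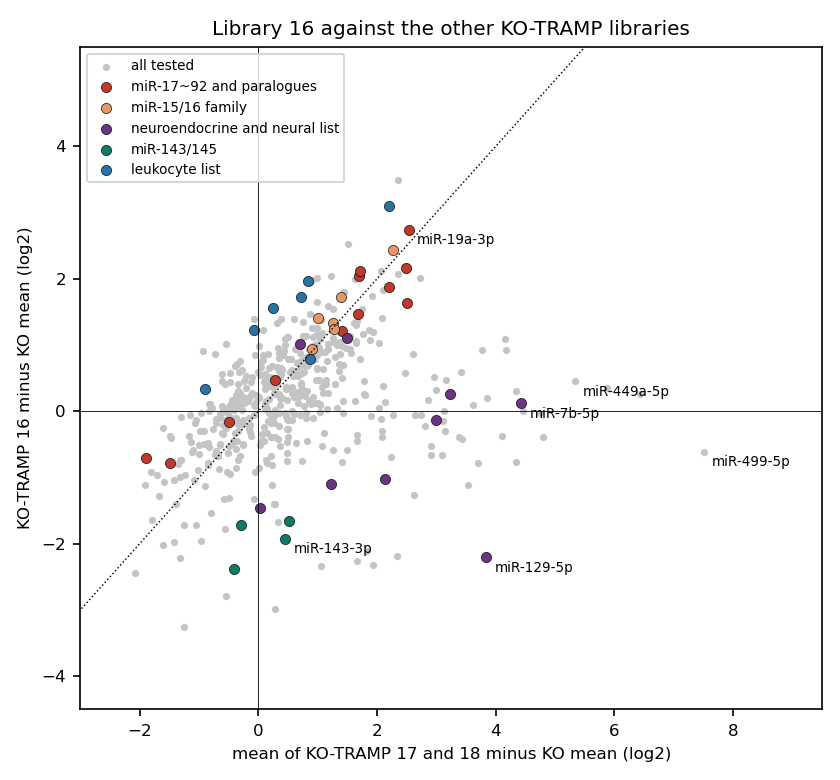
Each of the 516 tested miRNAs by its log2 difference from the KO mean in KO-TRAMP libraries 17 and 18 (mean, horizontal) and in KO-TRAMP library 16 (vertical), on the log2(CPM + 1) scale, with the dotted line marking equal differences. Members of the miR-17-92 and miR-15/16 lists lie near that line, most neuroendocrine and neural markers lie to its lower right with miR-499-5p at the far right, and miR-143 and miR-145 strands lie below zero for library 16 and near zero for libraries 17 and 18.

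None of the 10 most abundant miRNAs passed the test. The calls concerned miRNAs below these in level, among them miR-7a-5p with a mean of 4141 CPM and miR-205-5p with 2522 CPM. The smooth muscle miR-143-3p, the most abundant, was at 53618, 330631 and 233706 CPM in KO-TRAMP and 278714, 118143 and 256047 CPM in KO (-0.34 ± 0.73 (SE), adjusted p = 0.742). The oncogenic miR-21a-5p was at 182814, 70280.4 and 115988 CPM against 57125, 94552 and 62118 CPM (0.72 ± 0.41 (SE), adjusted p = 0.229), and miR-148a-3p at 260669, 103939 and 152485 CPM against 147457, 222367 and 162205 CPM (-0.12 ± 0.39 (SE), adjusted p = 0.826). In the last 2 library 16 was the highest of all 6. The log2 differences of the other 7 ran from -0.60 (let-7f-5p) to 0.68 (miR-27b-3p), with miR-99a-5p at -0.52, miR-200b-3p at -0.30, miR-26a-5p at -0.15, let-7c-5p at -0.12 and let-7g-5p at -0.07.

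Of the other lists, none of the 9 let-7 miRNAs passed (median -0.29), nor any of the 3 miR-29 (median -0.92), 5 miR-30 (-0.55), 5 fibroblast (-0.01), 4 smooth muscle (-0.55), 4 red cell (0.41), 2 endothelial (-0.15) or 4 miR-181 miRNAs (0.16). These lists do not hold every strand, and outside them miR-29b-2-5p (-0.98), miR-29c-5p (-1.11) and miR-30a-3p (-0.88), noticed after their values were seen, fell. Among the 8 epithelial markers miR-203-3p rose and miR-205-5p fell, and the other 6 did not pass (median 0.34). The X-linked cluster that holds miR-322 and miR-503 had 1 rise among 8 tested (median 0.65). The miR-183 cluster (median 0.71), the miR-26 and miR-101 list (0.43) and the Hox cluster list (0.06) each had the 1 rise given above, and in the miR-193 and miR-365 list 2 of 3 fell (-1.41). In the lists of miR-21, miR-23 with miR-27 and miR-24, miR-99 with miR-125, miR-148, miR-192, miR-210 and miR-378, none passed, with medians of -0.18 to 0.99. A list of 6 miRNAs taken from the study text, where they concern ELAC2 mutants against WT and not the transgene, had none that passed in this comparison of other groups.

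Both strands of a hairpin gave a further reading of the same locus. In 118 hairpins of 1 locus both strands were tested. Both were called in 11, with the same sign in all 11, and 1 was called in 28, where the other had the same sign in 26. Among the 79 hairpins with neither strand called the signs were the same in 60, and in all 118 they were the same in 97. Of 31 genomic clusters with at least 3 tested strands of 1 locus, 12 held a called rise, 3 a called fall, 0 both and 16 no call. Of all miRNAs 14.1% rose and 3.49% fell, and a cluster of several strands can hold a call at these shares alone. These 4 counts are therefore no result about clusters. Rises were most of the tested strands in miR-106b-25 (6 of 6 tested strands higher), miR-17-92 on chromosome 14 (6 of 7 higher, with miR-92a-3p, which has further loci, not counted), miR-15b with miR-16-2 (3 of 3 higher), miR-497a with miR-195a (3 of 3 higher), miR-132 with miR-212 (3 of 4 higher) and miR-15a with miR-16-1 (2 of 3 higher), and falls were most of them in miR-29b-2 with miR-29c and in miR-221 with miR-222 (2 of 3 lower in each).

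The same transgene was then compared across Elac2 backgrounds, in libraries that the comparisons do not share. In WT prostate at 30 weeks 79 miRNAs rose (15.5%) and 68 fell (13.3%) with TRAMP, and in A537T prostate 44 rose (8.89%) and 16 fell (3.23%). Of the 73 that rose in KO, 40 rose in WT, which is 54.8% of the 73 and 52.6% of the 76 miRNAs higher in WT among those tested here, and 33 rose in A537T (45.2% and 76.7% of 43). Of the 18 that fell in KO, 16 fell in WT (88.9% of the 18 and 23.5% of 68) and 8 in A537T (44.4% and 50.0% of 16). No miRNA was called in opposite directions in KO and either of these backgrounds. The miR-17-92 list had 9 higher and 3 lower in WT (against 15.5% and 13.3% of all miRNAs). In A537T it had 8 higher and 0 lower (against 8.89% and 3.23%). Its medians were 1.40 in WT and 1.21 in A537T, against 1.71 in KO. For miR-93-5p the log2 differences were 2.09 in KO, 1.82 in WT and 1.72 in A537T, and for miR-205-5p -1.30, -1.78 and -1.55.

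A test of the difference between transgene effects found 1 miRNA for KO against WT, higher in its effect in KO (0.193% of 518) with 0 lower (0%), and none for KO against A537T (0% of 513), by limma over the 4 groups concerned. The KO and KO-TRAMP libraries are shared by these tests. At an unadjusted p under 0.05 there were 112 and 79, edgeR called 0 and 0 and DESeq2 62 (45 higher, 17 lower) and 8. The 1 miRNA was miR-877-5p, a mirtron, spliced rather than cut from its host Abcf1, at 5.15, 7.14 and 7.11 CPM in KO-TRAMP, 3.85, 4.73 and 3.20 CPM in KO, 1.85, 1.91 and 1.90 CPM in WT-TRAMP and 5.22, 6.46 and 6.37 CPM in WT. The log2 difference with TRAMP was 0.60 in KO, where it did not pass (adjusted p = 0.145), and -1.28 in WT, a difference of effects of 1.88 ± 0.29 (SE, log2 scale), adjusted p = 0.0308 by limma. In A537T at 30 weeks miR-877-5p was at 2.39, 2.42 and 2.31 CPM with TRAMP and 3.84, 7.14 and 2.81 CPM without. In KO at 10 weeks it was at 1.28, 1.24 and 0.469 CPM with TRAMP and 3.18, 4.43 and 4.39 CPM without. Its TRAMP libraries were thus the lower ones there, as in WT. For KO against A537T, miR-329-5p of the Dlk1-Dio3 locus came nearest to a call (1.34 ± 0.34, adjusted p = 0.309 by limma). These counts rested on single libraries. Without library 16, 78 and 15 miRNAs were higher and lower for KO against WT and 86 and 2 for KO against A537T, and without WT library 19, 75 and 4 for KO against WT.

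The Dlk1-Dio3 miRNAs had a median transgene difference of 0.87 in KO, -0.996 in WT and -0.15 in A537T, and in WT 1 of them fell and none rose. The WT libraries were divided here. For miR-379-5p WT libraries 19, 20 and 21 stood at 84.2, 270 and 248 CPM, against 139, 218 and 186 CPM in WT-TRAMP. Library 19 thus lay below every WT-TRAMP library and libraries 20 and 21 above. The neuroendocrine and neural markers had medians of 1.37, -0.89 and -0.58. None of the members of either list passed the test of the difference in effects with all libraries, and for miR-434-5p that difference was 1.97 against WT (adjusted p = 0.128 by limma). For miR-7a-5p the log2 difference was 1.37 in KO and -0.00336 in WT, and for miR-96-5p 0.80 and 0.04, with adjusted p of 0.0748 and 0.0619 for the difference by limma.

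**Figure D4:**
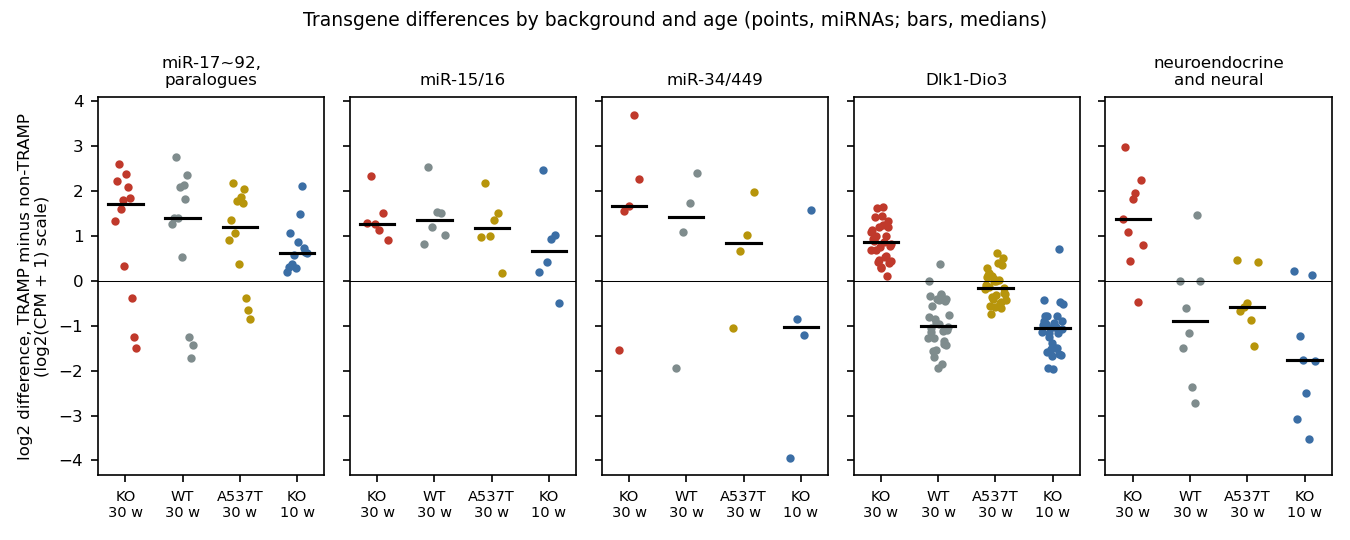
Log2 difference between TRAMP and non-TRAMP libraries (log2(CPM + 1) scale) for the tested members of 5 lists (points, bars for medians), in KO, WT and A537T at 30 weeks and in KO at 10 weeks, 3 libraries per group. The miR-17-92 and miR-15/16 medians are above zero in all 4 comparisons, and the Dlk1-Dio3 median is above zero for KO at 30 weeks and below it in the other 3. Medians of all miRNAs are not drawn.

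Against age, the transgene effect in KO differed between 30 and 10 weeks for 115 of 520 miRNAs by limma, 106 with the higher effect at 30 weeks (20.4%) and 9 with the lower (1.73%). With TMM scaling these were 64 and 20, and with median-of-ratios scaling 52 and 51. At 10 weeks TRAMP had raised 86 (16.9%) and lowered 138 (27.1%) of 510 miRNAs. Of the 73 miRNAs that rose at 30 weeks 26 had risen and 6 had fallen at 10 weeks, and of the 18 that fell 16 had fallen. The Dlk1-Dio3 list accounted for 26 of the 106. With TRAMP at 10 weeks 10 of its members were lower (against 27.1% of all miRNAs) and 1 higher (against 16.9%), with a median of -1.06 there. For miR-379-5p the values were 135, 247 and 203 CPM in KO-TRAMP and 362, 420.3 and 285 CPM in KO at 10 weeks, so that TRAMP libraries were the lower ones at 10 weeks and the higher ones at 30 weeks (difference of effects 2.01 ± 0.33 (SE), adjusted p = 0.00986, limma). The same held for miR-34c-5p, with 22.3, 62.8 and 55.0 CPM in KO-TRAMP and 91.8, 101 and 106 CPM in KO at 10 weeks (difference 2.87 ± 0.47 (SE), adjusted p = 0.00986, limma), and for miR-299a-3p (2.05 ± 0.29 (SE), adjusted p = 0.00986, limma). At 30 weeks miR-379-5p was at 218, 246 and 244 CPM in KO-TRAMP and 107, 121 and 96.1 CPM in KO. Its KO levels were thus lower at 30 weeks, while its KO-TRAMP levels overlapped between the ages. For miR-34c-5p and miR-299a-3p KO levels were lower and KO-TRAMP levels higher at 30 weeks than at 10 weeks.

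Of the 12 miR-17-92 list members 8 rose at 30 weeks (against 14.1% of all miRNAs) and 5 had risen at 10 weeks (against 16.9%, list median 0.63). With libraries scaled to their totals, the effect was higher at 30 weeks for 5 (against 20.4%) and lower for 1 (against 1.73%). The log2 difference of miR-106b-5p was 0.86 at 10 weeks and 2.38 at 30 weeks (adjusted p of the difference 0.0183 by limma), and that of miR-25-3p 2.12 and 1.85 (0.473). The log2 difference of miR-142a-3p, 2.50 at 30 weeks, was 0.61 at 10 weeks (adjusted p of the difference 0.00986 by limma). Among miRNAs with the lower effect at 30 weeks were miR-200a-5p (1260.2, 1135 and 989 CPM in KO-TRAMP and 470.2, 510.3 and 432 CPM in KO at 10 weeks, difference -1.02 ± 0.28 (SE), adjusted p = 0.0268), miR-3473b (-1.72 ± 0.49 (SE), adjusted p = 0.0310) and miR-20b-5p (-1.90 ± 0.56 (SE), adjusted p = 0.0341), all by limma. For miR-34a-5p the fall was deeper at 10 weeks, -3.94 against -1.54 (adjusted p of the difference 0.00986 by limma).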

How the data were processed

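Small RNA was sequenced by the authors on an Illumina NovaSeq after TruSeq Small RNA preparation, and miRNAs were quantified with miRDeep2 on GRCm38. The deposited tables hold a normalised signal per miRNA, reads divided by a size factor per library that the authors obtained with DESeq2 in separate tables for each genotype. Since all positive values of a library are whole multiples of its smallest (100% within a tolerance of 0.01), reads were recovered, and columns shared between tables agreed in every read. Deposited tables of comparisons hold the authors' fold changes and s-values and were not used. Columns were placed in groups by the table that holds them.

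Reads were divided by their sum and multiplied by 1000000 (CPM). limma (3.58.1, R 4.3.3, variance trend) was fitted to log2(CPM + 1) for miRNAs with a mean of at least 1 CPM, 2-sided, with Benjamini-Hochberg adjustment, and only the groups compared entered a fit. Differences between transgene effects were interaction contrasts over 4 groups. The scripts were tested on simulated data. Differences on this scale understate those of low miRNAs. Named are up to 12 called miRNAs per direction with the largest difference, a mean of at least 10 CPM and no overlap of groups, the 10 most abundant, list members, and up to 3 per direction for each interaction. Lists and members were chosen with earlier results of these data known. Alternatives were other pseudocounts (0.1 and 10 CPM), filters, TMM and median-of-ratios scaling, edgeR 4.0.16, DESeq2 1.42.0, no variance trend, a fit over all 36 libraries and leaving out each library. The replicates are 3 libraries per group, and since the labels do not say whether animals were pooled, p-values measure the spread between libraries. No library pair within a group agreed within sampling noise (chi-square per degree of freedom at least 141). Without molecular identifiers, reads are not independent molecules.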

Additional observations from a re-analysis of the deposited data

Results flagged for a closer look

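The transgene effect differed between backgrounds or ages for the miRNAs given here, each by the test of the difference itself (limma, adjusted over all miRNAs). For miR-877-5p the effect in KO exceeded that in WT at 30 weeks by 1.88 on the log2 scale (adjusted p = 0.0308), at levels of 1.85 to 7.14 CPM. In A537T at 30 weeks and in KO at 10 weeks its TRAMP libraries were the lower ones, as in WT. In KO the effect at 30 weeks exceeded that at 10 weeks by 2.87 for miR-34c-5p, 2.05 for miR-299a-3p and 2.01 for miR-379-5p (adjusted p = 0.00986 for each). It was below that at 10 weeks for miR-200a-5p (-1.02), miR-3473b (-1.72) and miR-20b-5p (-1.90), with adjusted p of 0.0268, 0.0310 and 0.0341.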

How the results depend on the processing

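No paired analysis was possible because the columns carry a library number and no replicate number, so no replicate block could be fitted. Counts are higher and lower calls for the transgene effect in KO at 30 weeks, for which 73 and 18 are reported. They were 44 and 11 with no filter, 45 and 18 with a mean of at least 10 CPM, where fewer miRNAs are tested, 44 and 25 with TMM scaling, 35 and 30 with median-of-ratios scaling, 87 and 65 by DESeq2, and 155 and 46 in a fit over all 36 libraries. Leaving out 1 library gave 0 to 192 higher and 0 to 43 lower. For KO minus WT (1 and 0 reported) they were 3 and 1 with a pseudocount of 10 CPM, 2 and 0 with no filter, 0 and 0 with a mean of at least 10 CPM, with median-of-ratios scaling and by edgeR, 1 and 1 with TMM scaling, 45 and 17 by DESeq2, 47 and 5 over all 36 libraries, and 0 to 78 and 0 to 15 without 1 library. For KO minus A537T (0 and 0) DESeq2 gave 8 and 0, and leaving out 1 library 0 to 86 and 0 to 2. For KO at 30 minus 10 weeks (106 and 9) they were 55 and 2 with no filter, 60 higher with a mean of at least 10 CPM, 64 and 20 with TMM scaling, 52 and 51 with median-of-ratios scaling, 65 and 37 by edgeR, 83 lower by DESeq2, 23 lower over all 36 libraries, and 25 to 195 and 0 to 36 without 1 library. Apart from the filters and left-out libraries, the cause was not tested.

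Of the named miRNAs none that was called changed sign under any alternative. Signs of uncalled ones changed with median-of-ratios scaling for miR-146a-5p (-0.0410), miR-375-3p (-0.0452) and miR-92a-3p (-0.0655), and by DESeq2 for miR-92a-3p (-0.0929). Leaving out 1 library gave -0.86 to 0.45 for miR-143-3p, -0.0709 to 0.75 for miR-146a-5p, -0.37 to 1.93 for miR-10b-5p, -0.47 to 0.19 for miR-148a-3p, -0.38 to 1.67 for miR-375-3p, -0.14 to 1.22 for miR-9-3p, -0.18 to 0.0279 for let-7g-5p and -0.32 to 0.16 for let-7c-5p.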
